A study of Mus musculus with 2 samples.

Results

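A panel of 39 cell cycle genes was followed through single cells of mouse dorsal skin. The panel was a fixed list of gene symbols, and all 39 were found among the 32285 genes of the count matrix. Of these, 13 serve DNA replication and nucleotide supply, 22 serve mitosis, and the other 4, Stmn1, Hmgb2, Tubb5 and Tuba1b, are made by many resting cells as well. A cell was called cycling when at least 5 of the 35 members other than those 4 had a UMI, that is, a counted RNA molecule. By this call 546 of 3797 cells (14.4%) were cycling. The call used those 35 genes, so that their levels in called cells describe the call and test nothing.

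The cells came from shaved dorsal skin of male mice labelled WT, with no treatment, and had been sorted as positive for F4/80 with high MHC class II, surface proteins of macrophages and dendritic cells. A library of 2 pooled mice was made at 9 weeks of age and another at 108 weeks. Both libraries lie in 1 matrix and differ by a barcode suffix, 1 or 2, whose age is given by none of the sources. The ages were therefore not compared, and the libraries are given by suffix, as libraries of unknown age. With 1 library per age, cells are not replicates and no p-value is given. Intervals in brackets are exact 95% intervals and cover counting error only.

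Dividing cells pass through a phase of DNA synthesis (S) and, after a gap (G2), through mitosis (M). Before S phase, E2F factors switch on the genes of the replication machinery. Later, the DREAM complex and its activating partner, with B-Myb and FoxM1, act on the genes of mitosis, many of which carry a short CHR element and CCAAT boxes just ahead of the start. In skin, the basal layer of the epidermis divides throughout life, while resident macrophages and dendritic cells are known to renew partly by local division.

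The promoters of 6 members show these elements, and were chosen to cover mitotic members that were found in few cells, a replication gene, and the member found in most cells. Each line gives the 250 bases before the start of the gene, 5′ to 3′ on the strand of the gene, from RefSeq on GRCm38.p6. Capitals mark matches, on either strand and with overlaps allowed, to a CHR (spelled TTTGAA here, with the further form TTCGAA), to the letters of the CCAAT box, or to an E2F site (TTTCCCGC, TTTGGCGC, TTTCGCGC or TTTGCCGC). Ccnb2 (cyclin B2) lies at chr9:70421555-70421804, minus strand. Top2a (topoisomerase II alpha) lies at chr11:99024190-99024439, minus strand. Ube2c lies at chr2:164769679-164769928, plus strand, and Cdk1 at chr10:69352913-69353162, minus strand. Mcm6 lies at chr1:128359706-128359955 and Ube2s at chr7:4812341-4812590, both on the minus strand.
Ccnb2: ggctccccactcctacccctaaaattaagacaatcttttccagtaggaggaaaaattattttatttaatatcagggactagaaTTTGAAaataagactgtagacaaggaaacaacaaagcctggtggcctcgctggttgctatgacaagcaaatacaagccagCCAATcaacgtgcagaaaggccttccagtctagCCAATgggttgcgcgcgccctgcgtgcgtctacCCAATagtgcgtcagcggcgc
Top2a: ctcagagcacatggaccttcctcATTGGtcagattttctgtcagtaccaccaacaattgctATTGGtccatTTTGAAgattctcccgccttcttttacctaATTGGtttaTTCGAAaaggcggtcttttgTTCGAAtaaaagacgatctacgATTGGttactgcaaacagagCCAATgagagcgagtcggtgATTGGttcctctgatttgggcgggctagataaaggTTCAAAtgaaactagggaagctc
Ube2c: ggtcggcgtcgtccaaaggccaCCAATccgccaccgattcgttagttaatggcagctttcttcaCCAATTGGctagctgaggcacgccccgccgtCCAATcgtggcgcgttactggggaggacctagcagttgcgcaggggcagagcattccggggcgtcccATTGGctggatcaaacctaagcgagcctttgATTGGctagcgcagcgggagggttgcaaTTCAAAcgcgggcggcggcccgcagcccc
Cdk1: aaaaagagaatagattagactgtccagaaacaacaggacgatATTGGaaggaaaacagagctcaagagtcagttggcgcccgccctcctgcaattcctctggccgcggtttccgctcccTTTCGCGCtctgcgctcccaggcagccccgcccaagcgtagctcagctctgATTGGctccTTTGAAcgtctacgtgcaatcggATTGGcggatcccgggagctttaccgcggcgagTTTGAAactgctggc
Mcm6: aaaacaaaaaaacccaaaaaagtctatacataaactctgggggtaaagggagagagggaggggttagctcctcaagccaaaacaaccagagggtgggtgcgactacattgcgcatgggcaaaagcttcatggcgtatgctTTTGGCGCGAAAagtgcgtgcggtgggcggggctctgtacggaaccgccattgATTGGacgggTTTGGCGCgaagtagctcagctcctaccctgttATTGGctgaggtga
Ube2s: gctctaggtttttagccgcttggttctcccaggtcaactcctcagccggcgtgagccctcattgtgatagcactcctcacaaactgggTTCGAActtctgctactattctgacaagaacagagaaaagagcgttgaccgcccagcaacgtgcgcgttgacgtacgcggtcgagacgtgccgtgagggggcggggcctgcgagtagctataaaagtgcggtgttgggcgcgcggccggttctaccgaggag

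Of the 39 members, 33 matched a RefSeq promoter. Mcm4, Ccne2, Ccna2, Aurkb, Tpx2 and Stmn1 did not. In the window from 250 bases before the start to 50 after it, a CHR was found in 18 of 33 members (54.5%), against 21.7% of 27025 genes. A CHR lay in 15 of 19 mitotic members (78.9%) and in 2 of 11 replication members (18.2%). A CCAAT box lay in 27 of 33 members (81.8%) against 41.1% of all genes, and both elements together in 17 (51.5%) against 8.61%. The E2F letters were found in 6 members (18.2%), 5 of them among the 11 replication members, against 2.60% of all genes. A TATA box (TATAAA) was found in 1 member, Ube2s, against 15.7% of all genes, and Ube2s is also the promoter above without a CCAAT box. In the 250 bases before the start alone, as printed above, a CHR lay in 10 of 19 mitotic members (52.6%), both elements in 12 of 33 members (36.4%, against 7% of all genes) and the E2F letters in 3 of 11 replication members (27.3%). A match to these letters describes a sequence and does not show binding, and the absence of a match says only that these letters are not in this window.

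The matrix held 56204601 UMIs in 5257 barcodes, and 3797 cells (2396 with suffix 1 and 1401 with suffix 2) passed the filter of 500 genes, 1000 UMIs and at most 10% mitochondrial UMIs. The median cell had 10870 UMIs. The label of the samples is macrophage, but the clusters also held other cells of skin. By marker genes, 2047 cells were phagocyte-like, of the macrophage and dendritic lineage, and all 12 markers of that list were present in them. The next classes were 826 fibroblast-like, 295 blood endothelial-like, 126 Schwann-like, 90 skeletal muscle-like, 70 keratinocyte-like, 56 lymphatic endothelial-like, 34 T cell-like and 32 mast cell-like cells. Names were rebuilt from the markers of each cluster, with the members kept out of the clustering.

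The number of members per cell fell steeply and then ran on in a long tail. A total of 3251 cells had a UMI of 0 to 4 genes of the call, 466 had 5 to 9, and 80 had 10 or more, up to 34 of 35. The split at 10 genes was chosen for description after the counts per cell had been seen. The depth of the cells moved with the call, since the median was 9822 UMIs in cells with 0 to 4 genes, 20050.5 in cells with 5 to 9 and 28800 in cells with 10 or more. On each side of the threshold, 518 cells had exactly 4 genes, with a median of 13800 UMIs, and 265 had exactly 5, with 17564. When each cell was thinned to 5000 UMIs, 53 of 79 cells with 10 or more genes were still called, against 28 of 457 with 5 to 9.

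**Figure D1:**
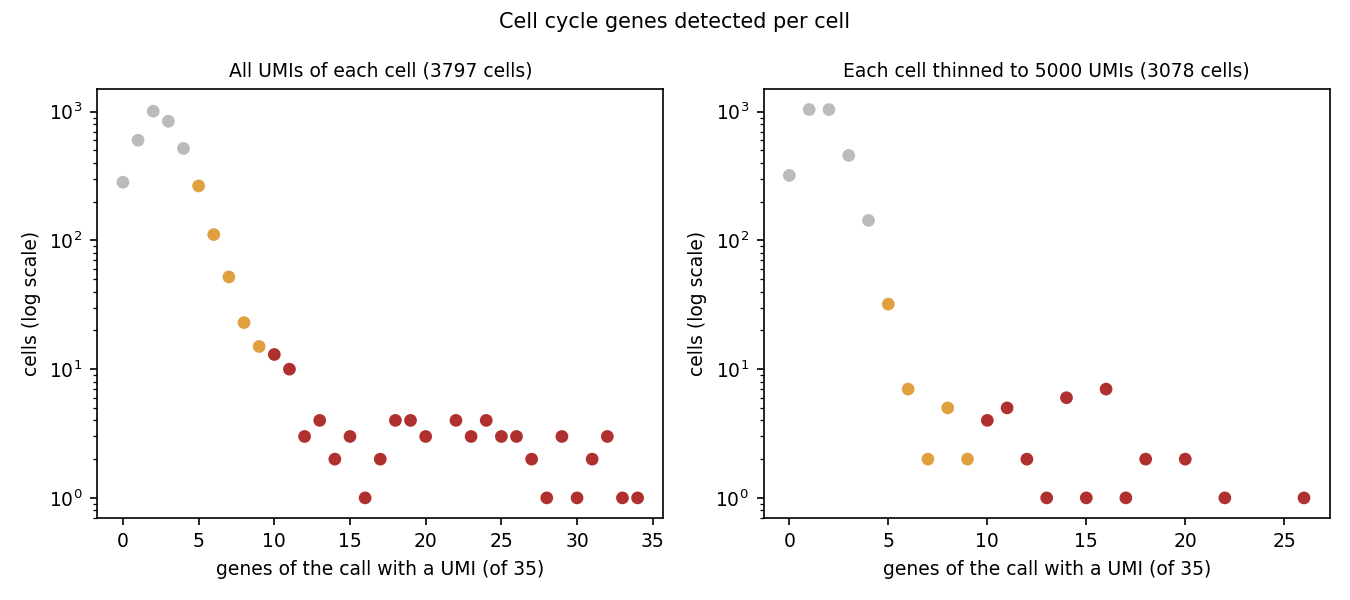
Number of cells (log scale) by the number of the 35 genes of the call with a UMI, with all UMIs of each of the 3797 cells on the left and with 5000 UMIs per cell on the right. Grey, orange and red points stand for 0 to 4, 5 to 9 and 10 or more genes. The 80 cells with 10 or more genes form a long tail up to 34 genes.

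Ube2s, Pcna and Cenpa held most of the UMIs of the call at its lower edge. Ube2s, an E2 enzyme that extends ubiquitin chains on targets of the anaphase-promoting complex, had a UMI in 78.3% of the cells with 0 to 4 genes, and Pcna, the sliding clamp of DNA polymerases, in 62.9%. Cenpa, the histone H3 variant of centromeres, had one in 20%. These 3 genes held 75% of the UMIs of the call in cells with 5 to 9 genes and 33.8% in cells with 10 or more. The call counts genes and not UMIs. In cells with 5 to 9 genes, Ube2s was found in 98.1%, Pcna in 92.9% and Cenpa in 54.3%. A cell with all 3 needed only 2 more members to be called. Without them, 5 of the other 32 genes were reached in 3.71% of phagocyte-like and 2.42% of fibroblast-like cells, a call added after the data had been seen. Ube2s shares 183 exon bases with the ribosomal protein gene Rpl28 on the other strand, and Rpl28 stood at 1974 CPM (UMIs per 1000000 UMIs of the group) over all cells against 258 CPM for Ube2s. No source states whether the counting used strand. The part of Rpl28 reads in the Ube2s counts was not tested.

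Other genes of the same phases, which the call did not use, separated the bins. At 5000 UMIs per cell, at least 3 of 40 other S phase genes had a UMI in 13.7% of cells with 0 to 4 genes, 20.6% with 5 to 9 and 67.1% with 10 or more. For 63 other G2 and M phase genes the shares were 6.69%, 11.4% and 70.9%. The median cell with 10 or more genes held 4 of the S phase and 5 of the G2 and M phase genes, against 1 and 1 in both other bins. The cells with 5 to 9 genes thus lay near the uncalled cells in these genes, and those with 10 or more stood apart.

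Among the replication members, the 6 subunits of the MCM helicase, which unwinds DNA at the fork, were found in 1.94% (Mcm5) to 9.63% (Mcm3) of cells with 0 to 4 genes. Mcm3 was found in 43.3% of cells with 5 to 9 genes and in 80.0% with 10 or more. Mcm7 followed the same order with 3.97%, 22.3% and 82.5%, and Mcm2, Mcm4, Mcm5 and Mcm6 reached 60.0% to 76.2% in the highest bin. Ribonucleotide reductase, which makes deoxynucleotides, differed between its subunits. Its large subunit Rrm1 was found in 8.61% of cells with 0 to 4 genes and its small subunit Rrm2 in 1.51%, and the 80 cells with 10 or more genes held 24.5% of all Rrm1 UMIs and 67.6% of all Rrm2 UMIs. Tyms, which makes thymidylate, and Tk1, which salvages thymidine, had 33.5% and 64.9% of their UMIs there. Pclaf, a small partner of Pcna, had 547 of its 595 UMIs there (91.9%). Ccne2, the cyclin of S phase entry, was sparse, with 99 UMIs in all.

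The mitotic members were more restricted. Over the 20 mitotic members without Cenpa and Ube2s, the median gene had a UMI in 0.522% of cells with 0 to 4 genes, 3.11% with 5 to 9 and 41.2% with 10 or more. Cdk1, the kinase of mitotic entry, had 85.9% of its UMIs in the 80 cells, and its cyclins Ccna2, Ccnb1 and Ccnb2 had 92.6%, 83.8% and 79.2%. The mitotic kinases were sparse, with 26 UMIs of Plk1, 64 of Aurka and 101 of Aurkb in the whole matrix. Aurka, the spindle pole kinase, was the least restricted of the 20, with 29.7% of its UMIs in the 80 cells. These shares are totals that the deepest cells can dominate, and the 35 genes chose the cells.

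At the kinetochore, the checkpoint kinase Bub1 had 94.1% of its 34 UMIs in the 80 cells, and Bub1b, its relative, had 50.8% of 120. The motor Cenpe and the matrix protein Cenpf had 67.2% and 86.5%, and Birc5 (survivin), of the chromosomal passenger complex, 82.8%. Ube2c, the E2 enzyme that starts chains for the anaphase-promoting complex, had 91.6% of its 453 UMIs there, and Cdc20, which activates that complex, 67.4%. Ube2c was thus restricted to few cells while Ube2s was found in most cells.

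The spindle and cytokinesis genes Kif11, Nusap1, Prc1 and Tpx2 had 73.3% to 87.7% of their UMIs in the 80 cells. Top2a, which untangles DNA, was found in 1.51%, 10.5% and 72.5% of cells with 0 to 4, 5 to 9 and 10 or more genes. Mki67, the Ki-67 antigen that coats mitotic chromosomes, was found in 4.18%, 19.7% and 67.5%, and had 50.7% of its 832 UMIs in the 80 cells. In all, 24 of the 39 members had at least 50% of their UMIs in these cells and 4 had at least 90%, namely Pclaf, Ccna2, Bub1 and Ube2c. All of the 24 but Stmn1 were among the genes that chose the cells, so that these counts describe the call. No share over all genes is given beside them.

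**Figure D2:**
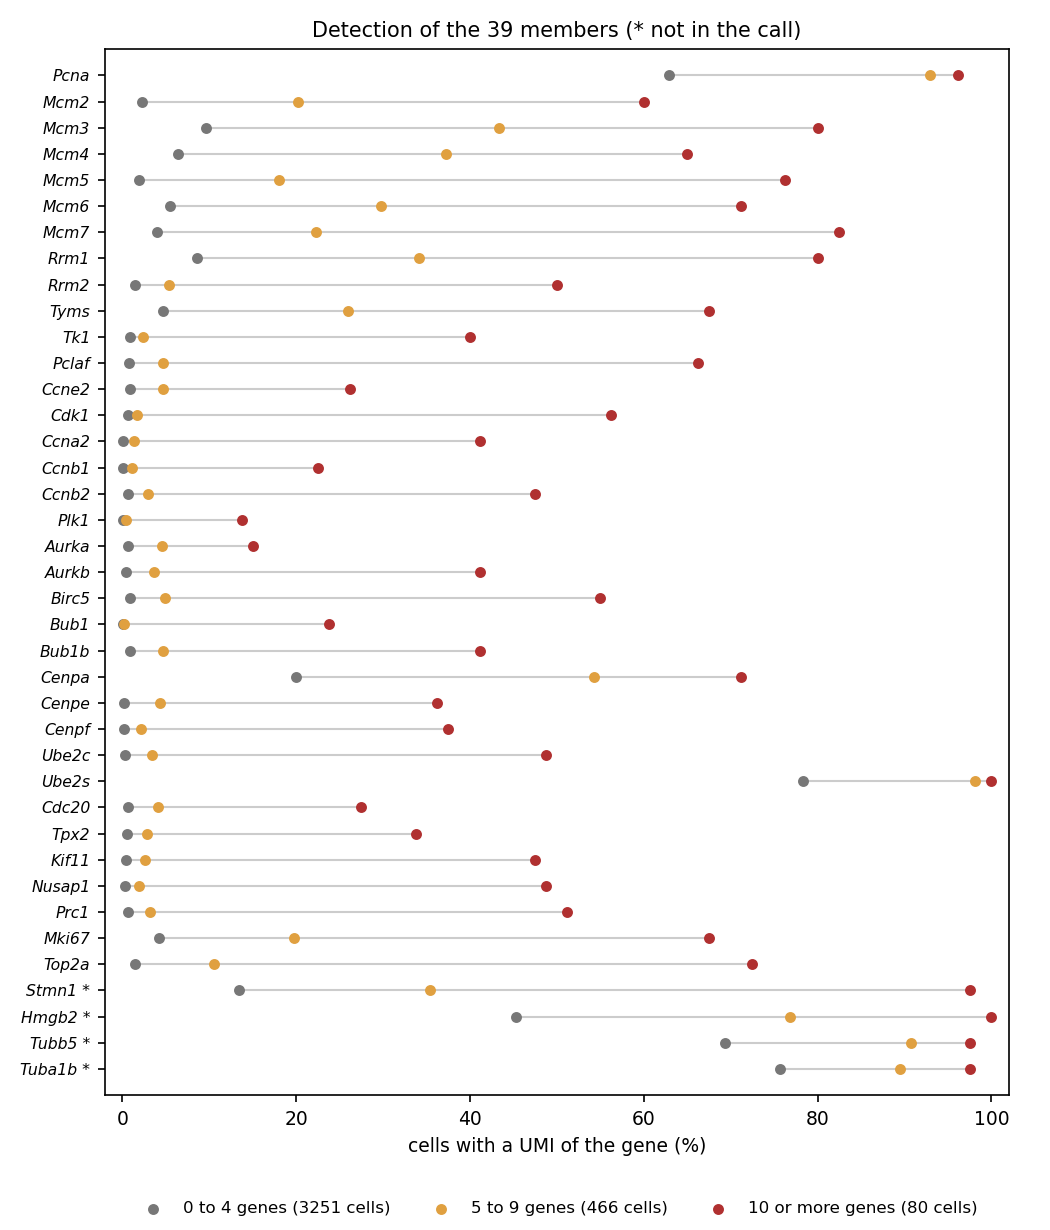
Share of cells with a UMI (%) of each of the 39 members, in cells with 0 to 4 (grey, 3251 cells), 5 to 9 (orange, 466) and 10 or more genes of the call (red, 80). Ube2s, Pcna, Cenpa and the 4 members outside the call (marked with a star) are found in many grey cells, and the others reach 9.63% at most there.

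The called share differed between cell types, and so did their depth. Of the phagocyte-like cells, 313 of 2047 were called (15.3%, 13.8 to 16.9), 14.9% with suffix 1 and 16.5% with suffix 2. Of the fibroblast-like cells, 66 of 826 were called (7.99%, 6.23 to 10.1), although their median depth, 13108 UMIs, was above the 11017 of phagocyte-like cells. At 5000 UMIs per cell, 61 of 1767 phagocyte-like cells (3.45%, 2.65 to 4.41) and 1 of 687 fibroblast-like cells (0.146%, 0.00369 to 0.808) were called, with 53 of the 61 from suffix 1 and 8 from suffix 2. The order of these classes was the same at every depth used, and the size of the share was not.

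Keratinocyte-like cells had the highest share, 34 of 70 (48.6%, 36.4 to 60.8), and also the highest median depth, 22076.5 UMIs. At 5000 UMIs, 6 of 60 were called (10.0%, 3.76 to 20.5), an interval that overlaps that of the phagocyte-like cells. All 6 had suffix 1 (6 of 40 cells), and none of the 20 cells with suffix 2 was called. Blood endothelial-like cells had 63 of 295 (21.4%), and 8 of 225 at 5000 UMIs (3.56%, 1.55 to 6.89), near the phagocyte-like share. Lymphatic endothelial-like cells had 16 of 56 called, T cell-like cells 8 of 34, Schwann-like cells 5 of 126 and mast cell-like cells 1 of 32. None of the 90 skeletal muscle-like cells was called, which allows a share of up to 3.33% by the 3 counts that a count of 0 allows, at a median of 2367 UMIs. Of the clusters without a name, 1 led by Rgs5 and Hbb-bs had 38 of 169 cells called and 1 led by Gal, Des and Myod1 had 2 of 52.

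Within the phagocyte-like cells the share followed depth. Of cells with fewer than 5000 UMIs, 6 of 280 were called (2.14%). Of those from 5000 to under 10000 UMIs, 24 of 572 were called (4.20%), of those from 10000 to under 20000, 145 of 948 (15.3%), and of those with 20000 or more, 138 of 247 (55.9%). Cells with 10 or more genes numbered 0, 1, 16 and 31 in these depth classes. The part of depth in these shares was not tested beyond the thinned values.

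Most of the 80 cells with 10 or more genes were phagocyte-like or keratinocyte-like. Of these, 48 were phagocyte-like (2.34% of that class, 1.73 to 3.10), 18 keratinocyte-like (25.7%, 16.0 to 37.6), 6 fibroblast-like (0.726%, 0.267 to 1.57), 2 blood endothelial-like, 2 lymphatic endothelial-like, 1 T cell-like and 3 in unnamed clusters. The suffix 1 library held 68 of them and the suffix 2 library 12, out of 2396 and 1401 cells. Typing each cell by its own markers gave the same class for 67 of the 80, and for 3307 of all 3797 cells. Their Scrublet doublet scores ran from 0.011 to 0.16, and none reached 0.2. In the other bins few did, 31 of 3251 cells with 0 to 4 genes and 11 of 466 with 5 to 9.

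The depth behind these identities was unequal. Phagocyte-like cells with 10 or more genes had a median of 22124.5 UMIs, keratinocyte-like cells 81308.5 and fibroblast-like cells 99808. At 5000 UMIs, 43 of 48 phagocyte-like, 6 of 17 keratinocyte-like and 0 of 6 fibroblast-like cells of this bin were still called. All 6 fibroblast-like cells lay in 1 cluster of 65 cells, led by Igfbp3, Prlr and Crabp1 with a median of 29241 UMIs, in which 33 cells (50.8%) were called. Without that cluster, 33 of 761 fibroblast-like cells were called (4.34%) and none had 10 genes. At 5000 UMIs the cluster kept 1 of 55.

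**Figure D3:**
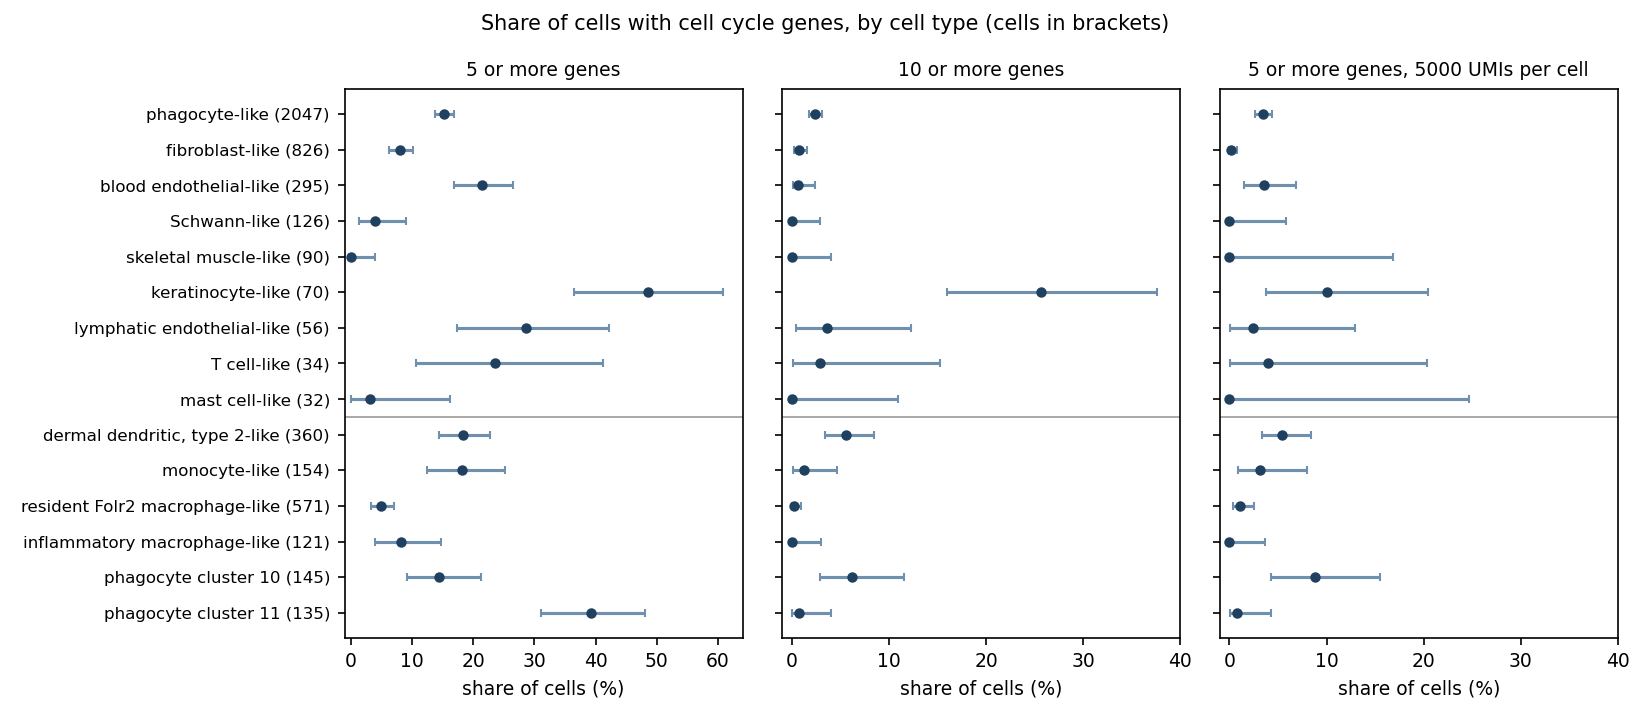
Share of called cells (%) per class, and below the line for some groups of phagocyte-like cells, with exact 95% intervals. The panels are at 5 or more genes, at 10 or more genes, and at 5 or more genes with 5000 UMIs per cell. The number in brackets counts all cells of the class, and the scales of the panels differ. Keratinocyte-like cells lie highest in all 3 panels, in the right one with cells of suffix 1 alone, and type 2 dermal dendritic-like cells lie above resident Folr2 macrophage-like cells.

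Among the phagocyte-like cells, the called cells were unequally placed. Type 2 dermal dendritic-like cells, marked by Cd209a, Mgl2 and Clec10a, had 66 of 360 called (18.3%) and 20 with 10 or more genes (5.56%, 3.43 to 8.45). Resident Folr2 macrophage-like cells, marked by Folr2, Lyve1 and Cd209f, had 28 of 571 called (4.90%) and 1 with 10 or more genes (0.175%, 0.00443 to 0.972). At 5000 UMIs the shares were 19 of 348 (5.46%, 3.32 to 8.40) and 5 of 460 (1.09%, 0.354 to 2.52). These intervals do not overlap, at median depths of 15249.5 and 8743 UMIs before thinning. By library, 18 of 253 type 2 dermal dendritic-like cells with suffix 1 and 2 of 107 with suffix 2 had 10 or more genes.

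Monocyte-like cells had 28 of 154 called and 2 with 10 or more genes, and mature dendritic-like cells 3 of 22 and 1. Inflammatory macrophage-like cells, whose leading genes include S100a9, had 10 of 121 called and none with 10 genes, which allows up to 2.48% by the same 3 counts. Of the 48 phagocyte-like cells with 10 or more genes, 24 lay in clusters that fitted no single subset. A cluster led by Spp1, Ly6c2 and Ms4a7, with C1qa, C1qb and C1qc next, had 46 of 217 called (21.2%). Of its cells, 5 had 10 or more genes. At 5000 UMIs it kept 9 of 166 (5.42%, 2.51 to 10.0), near the 5.46% of type 2 dermal dendritic-like cells. Clusters led by Retnla and Lyz1 had 6 of 196 and 3 of 126 with 10 or more genes. At 5000 UMIs they had 7 of 180 (3.89%, 1.58 to 7.85) and 5 of 124 (4.03%, 1.32 to 9.16). A cluster led by Ear2, Cd209a and Klrb1b had 9 of 145 (6.21%, 2.88 to 11.5), and the histone gene Hist1h2ap was among its leading genes. Hist1h2ap was in no list and so was not kept out of the clustering. Its part in the share of this cluster was not tested. A cluster led by Ly6c2, Ccl8 and C1qa, with a median of 18248 UMIs, had 53 of 135 called (39.3%) but only 1 with 10 genes, and 1 of 129 at 5000 UMIs.

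The 80 cells differed in the members that called them. Counting 12 replication members (without Pcna) and 20 mitotic members (without Cenpa and Ube2s), 40 cells had more replication genes, 37 more mitotic genes and 3 as many of each. The phagocyte-like cells held a median of 8 replication and 10 mitotic members, and 28 of 48 had more mitotic genes. Of the keratinocyte-like cells, 12 of 18 had more replication genes. The 6 fibroblast-like cells had 0 to 3 mitotic members and 5 to 8 replication members each. In cells with 5 to 9 genes, 384 of 466 (82.4%) had at most 1 of the 20 mitotic members. The 2 counts differ in size and detection, so that they order the cells only roughly, and phase was not called.

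**Figure D4:**
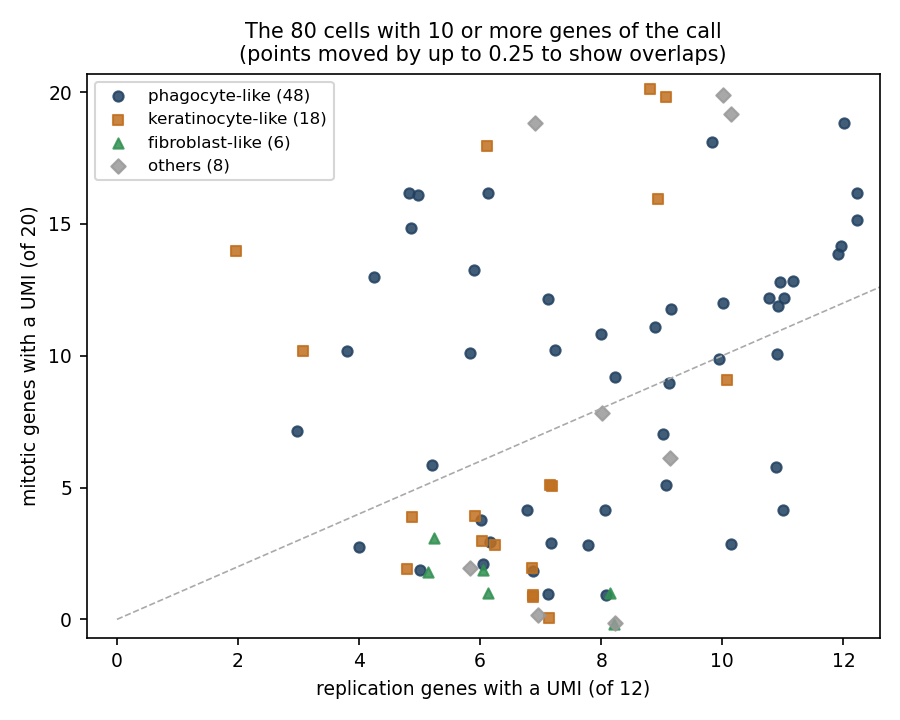
Number of mitotic members (of 20) against replication members (of 12) with a UMI in each of the 80 cells with 10 or more genes of the call, by class, with points moved by up to 0.25 to show overlaps. On the dashed line both numbers are equal. Phagocyte-like cells spread from 1 to 19 mitotic members, and fibroblast-like cells stay at 3 or fewer.

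Levels per class depended on few cells. Summed over the 32 genes of the call other than Ube2s, Pcna and Cenpa, the phagocyte-like cells stood at 220 CPM (214 to 226), the fibroblast-like at 71.9, the blood endothelial-like at 157, the keratinocyte-like at 384 and the T cell-like at 940. A single T cell-like cell held 87.7% of the T cell-like UMIs, and without cells of 10 or more genes that class fell to 138 CPM, the keratinocyte-like to 114 and the phagocyte-like to 93.3. The phagocyte-like sum was 246 CPM with suffix 1 and 144 with suffix 2. The keratinocyte-like sum was 529 CPM with suffix 1 and 139 with suffix 2. T cell-like cells had the highest level of 28 of the 39 members, of which 10 lay apart from the next class by their intervals. That cell has suffix 2, and in T cell-like cells with suffix 1 Mki67 had no UMI, while Hmgb2 stood at 469 CPM and Cenpa at 120.

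For single members, the share of cells with a UMI showed the same contrast between lineages. Mki67 was found in 12.0% of phagocyte-like, 14.3% of keratinocyte-like and 0.726% of fibroblast-like cells, and in none of the skeletal muscle-like cells. At 2000 UMIs per cell, 3.34% of 1976 phagocyte-like, 1.47% of 68 keratinocyte-like and 0 of 779 fibroblast-like cells had it. With so few keratinocyte-like cells, no order of phagocyte-like and keratinocyte-like cells is read from Mki67. Top2a was found in 5.47% of phagocyte-like, 30% of keratinocyte-like and 0.484% of fibroblast-like cells. At 2000 UMIs per cell these shares were 1.11%, 10.3% and 0.128%, in the same order. Cenpa stood at 80.3 CPM (76.9 to 83.9) in phagocyte-like, 109 in T cell-like and 64 in mast cell-like cells, against 2.67 (1.87 to 3.70) in fibroblast-like cells. Phagocyte-like cells with 0 to 4 genes of the call still had 67.1 CPM of Cenpa. Pcna stood at 291 CPM (274 to 309) in blood endothelial-like cells, which overlaps the 268 (196 to 357) of mast cell-like cells, and Ube2s ranged from 166 CPM in skeletal muscle-like to 338 CPM in T cell-like cells.

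Between phagocyte-like and fibroblast-like cells, a gene was counted as higher or lower where its CPM differed at least 2-fold in the same direction in both libraries, among genes with at least 20 UMIs. Of the 39 members, 20 were higher in phagocyte-like cells and none lower, and Plk1 had too few UMIs. Of all 13724 genes tested, 15.6% were higher and 23.2% lower. Top2a stood at 17.3 against 0.297 CPM, Mki67 at 27.4 against 0.445, and Cdk1 at 4.79 against 0.0742. Among the 18 tested members that did not pass were Ube2s at 213 against 311 CPM, Pcna at 169 against 117, Rrm1 at 11.6 against 15.9 and Mcm4 at 9.81 against 14.1.

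The 4 members left out of the call were compared within the phagocyte-like cells, between the 48 cells with 10 or more genes and the 1734 with fewer than 5. Of the 48, 42 had suffix 1 and 6 had suffix 2, so that every call in both libraries at 10 or more genes rests on those 6 cells for suffix 2. Stmn1, which destabilises microtubules and is switched off by phosphorylation in mitosis, stood at 883 CPM with suffix 1 and 623 with suffix 2 in the former, and at 10.7 and 9.80 in the latter. Hmgb2, a chromatin protein, stood at 1071 and 869 against 96.2 and 80.0. The tubulin genes Tubb5, at 1313 and 1403 against 200 and 216, and Tuba1b, at 1081 and 911 against 236 and 249, followed. All 4 were called higher in both libraries, as were 4.19% of the 11353 genes tested. The pooled ratios were 79.9-fold for Stmn1, 11.2-fold for Hmgb2, 6.50-fold for Tubb5 and 4.40-fold for Tuba1b.

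In the 265 phagocyte-like cells with 5 to 9 genes the same 4 genes lay near the uncalled cells. Stmn1 stood at 20.4 CPM against 10.5 (log2 ratio 0.95), Hmgb2 at 111 against 92.4 (0.27), Tubb5 at 197 against 204 (-0.05) and Tuba1b at 216 against 239 (-0.15). None was called higher in both libraries, against 0.423% of 11592 genes. Over all 313 cells with 5 or more genes, Stmn1 was 15.6-fold and Hmgb2 2.96-fold higher, while Tubb5 at 1.93-fold and Tuba1b at 1.51-fold did not pass. These comparisons share the cells with fewer than 5 genes, and each is given for its own values.

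In other classes the 4 genes were less separated. In keratinocyte-like cells Stmn1 stood at 201 CPM (180 to 225) with 10 or more genes and 55.5 (36.2 to 81.3) with 0 to 4. By library these values were 281 and 27.0 with 10 or more genes, so that the level with suffix 2, from 4 cells, lay below the 73.8 of the uncalled cells there. Hmgb2 stood at 393 against 196. The 6 fibroblast-like cells all had suffix 1, where Tubb5 stood at 140 CPM in them against 137 in uncalled cells, and Stmn1 at 43.2 against 11.

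Among phagocyte-like cells with 10 or more genes against those with fewer than 5, 34 of the 39 members were higher in both libraries and none lower, against 4.19% higher and 5.56% lower of 11353 genes. Nothing is read from this, because 30 of these members chose the cells. Ccnb1, Plk1, Aurka and Cdc20 had under 20 UMIs, and Cenpf had none with suffix 2. With 5 or more genes against fewer, 29 of the 36 members tested were higher, against 1.48% higher and 0.927% lower of 11757 genes. Here Ccnb1, Plk1 and Cdc20 had under 20 UMIs, and Pcna at 1.20-fold, Ube2s at 1.16-fold and Cenpa at 1.75-fold did not pass. With 5 to 9 genes, 12 of the 26 members tested were higher and 13 had under 20 UMIs. Over all 11592 genes there, 0.423% were higher and 0.871% lower. The pooled ratio at 10 or more genes ran over the members of the call from 2.29-fold (Pcna) to 639-fold (Ube2c), with a median of 48.8-fold.

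Cell cycle genes outside the panel, from lists not used by the call, followed the cells with 10 or more genes. Of 40 other S phase genes, 32 were higher, 5 did not pass and 3 had under 20 UMIs, with a median log2 ratio of 3.37 over those tested, against 0.02 over all genes. Over all 11353 genes, 4.19% were higher and 5.56% lower. Dtl, which marks replication proteins for breakdown, stood at 44.6 against 0.690 CPM. Lig1, which joins Okazaki fragments, was 27.5-fold higher. Of 63 other G2 and M phase genes, 41 were higher and 13 had under 20 UMIs, with a median of 4.14 over the 50 tested. The minimum of 20 UMIs is over both groups, so that a gene can reach it through the 48 cells alone. With no minimum, the medians over all 40 and all 63 genes were 3.51 and 4.11. Spc24, of the kinetochore, stood at 123 against 1.12 CPM, Cks1b, which binds Cdk1, at 144 against 3.88, and Cdca5 (sororin), which holds sister chromatids, at 30 against 0.0531, on 35 and 1 UMIs.

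Of 16 chromatin genes coupled to replication, 14 were higher (median log2 ratio 2.18), with H2afx, the histone of DNA damage foci, 16.4-fold, Tmpo, of the nuclear lamina, 11.6-fold and Ezh2, a histone methyltransferase, 7.16-fold higher. Of 14 cell cycle transcription factors, 6 were higher and 2 had under 20 UMIs. Mybl2 (B-Myb) stood at 21.4 against 0.159 CPM, Lin9, of the DREAM complex, at 18.9 against 1.75, Foxm1 at 23.1 against 0.744 and E2f1 at 62.6 against 12.3. Myc was the only one lower, at 5.14 against 13.5 CPM. Of 6 D-type cyclin and kinase genes, Cdk4, Cdk2 and Ccnd3 were higher by 3.14-fold, 3.60-fold and 2.39-fold, and Ccnd1, Ccnd2 and Cdk6 did not pass. Of 18 brakes, Rbl1 (7.56-fold) and Cdkn2c (3.47-fold) were higher, none was lower and 1 had under 20 UMIs. All these counts stand beside 4.19% higher and 5.56% lower of 11353 genes. Cdkn1a (p21) stood at 542 against 747 CPM and Btg1 at 1111 against 1418, neither past 2-fold. These list counts moved with the settings. With the other cells weighted to the clusters, 5 of 12 tested transcription factors were higher. With that weighting 0 were lower, Myc included. At 5000 UMIs, 1 of 10 was higher and 1 lower. Of the D-type cyclin and kinase genes, 1 of 6 was higher with that weighting and 0 of 6 at 5000 UMIs. For chromatin genes these counts were 12 of 16 and 11 of 15, and for brakes 2 of 17 and 1 of 15.

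Few genes of the same lists passed in the cells with 5 to 9 genes. Of the 40 S phase genes, Dtl and Prim1, a primase subunit, were higher (median log2 ratio 0.31 over 32 tested), and of 63 G2 and M phase genes none (0.18 over 31 tested), against 0.07 over all genes. These medians are not over the same genes as those at 10 or more genes, where 37 and 50 were tested. No chromatin gene, transcription factor or D-type cyclin gene passed, of 16, 10 and 6 tested. Of all 11592 genes, 0.423% were higher and 0.871% lower, so that nothing is read from a count of none in such short lists. Of 18 brakes, Gas1 was higher, at 4.73 against 1.01 CPM, and Cdkn2b lower, at 0.182 against 1.17 on 1 and 22 UMIs. Over all 313 cells with 5 or more genes, 22 S phase and 35 G2 and M phase genes were higher, against 1.48% of 11757 genes. Among them were Nuf2 and Pbk, the last with 39 UMIs against 0 and at least 36.7-fold higher by a limit of 3 UMIs over the group. Those 313 cells include the 48.

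**Figure D5:**
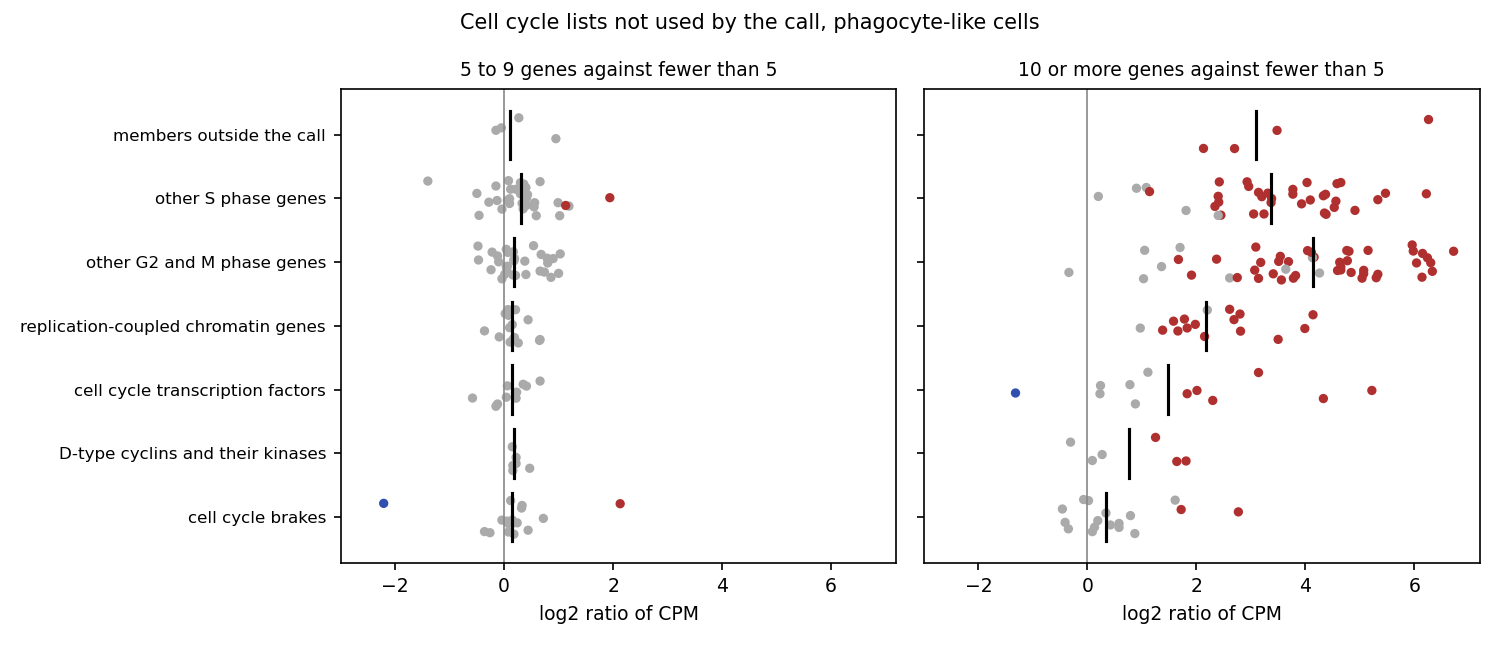
Log2 ratio of CPM in phagocyte-like cells for each tested gene of 7 lists that the call did not use, for 5 to 9 genes (left) and 10 or more genes (right) against fewer than 5. Red and blue points are at least 2-fold higher or lower in both libraries, grey points are not, and black bars are medians. The S phase and the G2 and M phase lists have medians of 0.31 and 0.18 on the left and 3.37 and 4.14 on the right. The genes tested differ between the panels, with 32 and 31 of these lists on the left and 37 and 50 on the right.

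The genes in no list with the largest ratios at 10 or more genes included 3 histone genes. Hist1h2ap, a histone gene, stood at 812 and 1094 CPM by suffix and at 858 against 4.89 pooled, Hist1h1b (histone H1) at 185 against 0.319 and Hist1h2ae at 150 against 1.97. Brca1, of homologous recombination, the citron kinase Cit, of cytokinesis, and Pkmyt1, which inhibits Cdk1, were 64.5-fold, 95-fold and 44.2-fold higher. Diaph3, Atad2, Nrm and the noncoding Lockd were higher by 27.2-fold, 9.42-fold, 12.0-fold and 94.1-fold. With 5 or more genes, Esco2, Pole and Cip2a joined the 10 highest, at 14.1-fold, 24.7-fold and 4.99-fold.

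Of the genes in no list, those that were lowest in the 48 cells included genes of resident macrophages. Ccl8, a chemokine, stood at 66.0 against 2328 CPM, Apoe, which carries lipids, at 316 against 4136, Ccl7 at 150 against 1892, Ms4a7 at 29.1 against 225 and Selenop, a selenium carrier, at 247 against 1578. Summed over 8 markers of resident Folr2 macrophages, the level was 736 CPM with 10 or more genes, 1541 with 5 to 9 and 2231 with 0 to 4. The 8 type 2 dermal dendritic markers stood at 3019, 2498 and 2872. No marker of either list was at 0 in any of these groups. Of lists of other cells, 2 of 8 T cell markers had a UMI in the 48 cells, at a sum of 32.6 CPM against 30.1 with 0 to 4 genes, and Cd3d, Cd3e and Cd3g were at 0. For keratinocytes it was 6 of 8 markers, at 16.3 against 17.1 CPM with Krt5 and Krt1 at 0, for fibroblasts 7 of 8, at 268 against 357 CPM, and for neutrophils 2 of 6, at 5.14 against 117 CPM with S100a8 and S100a9 at 0. Langerhans markers stood at 212 against 100 CPM, with all 7 present, and those of NK or innate lymphoid cells at 295 against 190, with 2 of 6 present. The part of these markers in the results was not tested.

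Within the type 2 dermal dendritic-like cells alone, 20 cells with 10 or more genes were set against 294 with fewer than 5. Stmn1 stood at 768 and 1238 CPM by suffix against 5.13 and 6.47, and Hmgb2 at 951 and 844 against 83.1 and 91.3. All 4 members outside the call were higher, as were 11 of 40 S phase genes (17 tested), 17 of 63 G2 and M phase genes (22 tested) and 10 of 16 chromatin genes. The other 23 S phase and 41 G2 and M phase genes had under 20 UMIs. That minimum is over both groups, so that a gene can reach it through the 20 cells alone. No setting without it was run here, and nothing is read from these list counts. Of all 39 members 23 were higher and 15 had too few UMIs, against 3.54% higher and 2.52% lower of 8053 genes. Ccl8, Apoe, Ccl7 and Selenop were not called there, with Ccl8 at 109 against 25.3 CPM and Apoe at 107 against 171. Of 14 transcription factors, 18 brakes and 6 D-type cyclin and kinase genes, 2, 1 and 1 were higher. The suffix 2 library gave 2 of the 20 cells.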

How the data were processed

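Dissociated dorsal skin cells, sorted as described above, were profiled with 3' v3.1 droplet chemistry. The authors deposited both libraries as raw UMI counts in 1 matrix, made with Cell Ranger 4.0.0 on mm10 per the labels' processing notes. The annotation, the strand setting and cell filters of that step: not given in the sources used here. Libraries held 35821853 (suffix 1) and 20382748 (suffix 2) UMIs, and shared 1 barcode, which was not among the kept cells.

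Cells were clustered without the members and other cell cycle lists (Python 3.11.15, scanpy 1.11.5, leidenalg 0.10.2, 2000 variable genes, 30 components, 15 neighbours, resolution 1), which gave 28 clusters. A class needed 3 markers at 20 CPM and 2-fold excess or more. Doublets were scored and not removed. UMIs were summed per group as CPM. Calls and log2 medians added the CPM worth of 0.5 UMI of the smaller group to both sides. Ratios of named genes are those of the CPM themselves, with exact intervals. Thinning drew 2000 or 5000 UMIs per cell at random (seed 1), leaving out shallower cells. The comparison was tested on simulated data.

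Named genes outside the panel were the 3 per list with the largest smaller ratio of both libraries, and the 10 higher and 5 lower in no list with at least 30 UMIs. Some genes that this rule names are not reported here. Foxm1, E2f1, Myc, Prim1, Gas1 and Cdkn2b at 5 to 9 genes, and the genes named for the type 2 dermal dendritic-like cells fall outside this rule, and were chosen after their values were seen. The members and lists were chosen with earlier results of these data known, and the naming rule and the split at 10 genes after the data had been seen.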

Additional observations from a re-analysis of the deposited data

Results flagged for a closer look

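Of 1460 barcodes that the filter on cells left out, 24 had 5 or more genes of the call and 3 had 10 or more. These 3 were flagged because they hold a signal in data that no result above used. A looser filter, run only as a setting for the called shares, took in some of the barcodes left out. All 3 were among the 1149 barcodes over the limit on mitochondrial UMIs, whose median was 2449 UMIs, and none was among the 311 within it.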

How the results depend on the processing

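The called share moved with the rule. For phagocyte-like cells (15.3%) and fibroblast-like cells (7.99%) it was 55.1% and 40.7% with 3 genes, 31.1% and 18.2% with 4, 7.72% and 3.75% with 6, 3.27% and 1.82% with 8, and 2.34% and 0.726% with 10. It was 59.8% and 45.9% with all 39 members, 1.21% and 0% at 2000 UMIs, 3.45% and 0.146% at 5000 UMIs, 54.8% and 42.7% with members at 0.1% of UMIs or more, and 3.71% and 2.42% with 32 genes, without Ube2s, Pcna and Cenpa. For fibroblast-like cells it also moved to 10.3% under the stricter filter, 4.17% with each cell typed alone, 11.6% with suffix 1 and 5.71% with suffix 2. In the other classes, 55 of the shares moved by more than their interval and 76 did not. The share was higher in phagocyte-like than in fibroblast-like cells under each of these settings.

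With 5 or more genes against fewer (174 genes higher, 109 lower), 218 were lower by mean CPM per cell, 331 higher and 483 lower with 8 genes, 390 and 290 with suffix 1, 198 lower with suffix 2, 309 and 309 with no minimum, 58 and 22 with 100 UMIs, and 56 higher at 2000 UMIs. Size factors moved the median of all genes by -0.11 and gave 154 and 136. Settings added after seeing the data gave 478 and 625 with 10 genes, 49 higher with 5 to 9, and 285 and 203 in type 2 dermal dendritic-like cells with 10 genes, where both the cells and the threshold changed. At 10 or more against fewer than 5 (476 and 631), weighting by cluster left 313 lower and 5000 UMIs left 278 higher. The ratios of Tubb5 (-0.05) and Tuba1b (-0.15) turned with 5 to 9 genes, and those of Stmn1 (0.95 to 6.95) and Hmgb2 (0.27 to 3.43) stayed above 0 in 14 settings. The cause of these shifts was not tested. No paired analysis was possible because no result comes from a replicated test and each age has 1 library.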
